A study of Mus musculus with 12 samples.

Results

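Mos, Map2k1, Map2k2, Mapk3, Rps6ka1, Rps6ka2 and Rps6ka3 encode the kinases that act one after another from Mos to the ribosomal S6 kinases of the oocyte. These 7 genes were chosen by name from the 24562 genes in the read counts, with earlier results of these data known. All 7 passed the filter on low counts, which left 13943 genes tested. The data come from RNA-Seq of denuded oocytes of CD-1 mice, in 12 pools that fall into 4 cohorts of 3. The cohorts were postnatal day (PND) 13, PND 16 from mice of lower body weight (PND 16 small), PND 16 from mice of higher body weight (PND 16 large), and PND 40. The study regards PND 13 and PND 16 small oocytes as lacking meiotic competence, PND 16 large oocytes as competent but of suboptimal quality, and PND 40 oocytes as competent and of optimal quality. Competent and non-competent name these groups of cohorts below. The study did not show its maturation data by body weight at PND 16, citing the small number of mice. The sources used here name no transgene, deletion or treatment, the ovaries had not been stimulated with gonadotropins, and the collection medium held milrinone, a phosphodiesterase inhibitor that keeps oocytes in meiotic arrest. Each pool held 18 to 45 oocytes, and the pools of a cohort are described as independent and made from the oocytes of 3 mice. The labels do not tie mice to pools, so the p-values measure only the spread between these pools.

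Mos is a serine/threonine kinase of germ cells that phosphorylates and activates the MAP kinase kinases MEK1 and MEK2, the products of Map2k1 and Map2k2. These in turn activate MAP kinases of the ERK family, among them ERK1, the product of Mapk3, and ERK activates the ribosomal S6 kinases RSK1, RSK3 and RSK2, the products of Rps6ka1, Rps6ka2 and Rps6ka3. Oocytes build up Mos mRNA while they grow and translate it after meiosis resumes, and the cascade is known for its part in spindle organization and in the arrest of the egg at metaphase II. The values below are levels of RNA, and they bear on neither the amount nor the activity of the proteins.

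In GENCODE M21 on GRCm38, Mos lies on the minus strand at chr4:3870657-3872105 and has 1 exon of 1449 bases. Map2k1 lies at chr9:64185770-64253631 on the minus strand, Map2k2 at chr10:81105915-81133975 on the plus strand and Mapk3 at chr7:126759601-126765819 on the plus strand. Rps6ka1 lies at chr4:133847290-133887797 on the minus strand, Rps6ka2 at chr17:7170115-7303315 and Rps6ka3 at chrX:159210307-159368244, both on the plus strand. An antisense gene, Gm12977, shares 247 exon bases with Rps6ka1, which is 5.80% of the exon bases of Rps6ka1. The libraries kept strand, but the strand setting of the counting is not given in the sources used here, so reads from those bases may belong to either gene.

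The promoters of the MEK pair are shown because Map2k1 rose in competent vs. non-competent oocytes and Map2k2 passed in no comparison, as described further on. RefSeq promoter sequences on GRCm38.p6 (250 bases before to 50 bases after the gene start) were matched for 4 of the 7 genes. Capitals mark every match, on either strand, to CCAAT (the CCAAT box), GGGCGG (the GC box), TGACG (the core of the cyclic AMP response element) or CACGTG (an E-box). The Map2k1 promoter is on the minus strand at chr9:64253556-64253855 and the Map2k2 promoter on the plus strand at chr10:81105665-81105964, both written 5′ to 3′:
Map2k1: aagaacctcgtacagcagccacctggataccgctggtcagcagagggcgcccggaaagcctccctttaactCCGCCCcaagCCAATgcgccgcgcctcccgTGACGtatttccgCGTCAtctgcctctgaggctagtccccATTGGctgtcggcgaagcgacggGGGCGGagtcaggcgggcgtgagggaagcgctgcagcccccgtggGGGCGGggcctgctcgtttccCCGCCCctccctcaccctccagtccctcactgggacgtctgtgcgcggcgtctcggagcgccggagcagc
Map2k2: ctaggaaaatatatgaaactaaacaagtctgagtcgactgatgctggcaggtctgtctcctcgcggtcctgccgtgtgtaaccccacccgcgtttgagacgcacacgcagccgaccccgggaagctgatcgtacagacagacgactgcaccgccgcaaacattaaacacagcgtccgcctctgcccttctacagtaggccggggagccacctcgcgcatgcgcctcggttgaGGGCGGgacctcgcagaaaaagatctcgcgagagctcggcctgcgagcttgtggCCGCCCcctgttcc
The Map2k1 window held 2 matches to CCAAT, 4 to GGGCGG and 2 to TGACG. The Map2k2 window held 2 matches to GGGCGG and none to CCAAT or TGACG, and neither window held CACGTG. The other matched genes, Rps6ka1 and Rps6ka2, did not pass in competent vs. non-competent oocytes. Rps6ka2 held 3 matches to CCAAT and 2 to GGGCGG. In Rps6ka1, promoter 1 held 1 match to CCAAT, 3 to GGGCGG and 1 to TGACG, promoter 2 held none and promoter 3 held 1 to CCAAT. Among 32851 promoters of the same length, 37.4% held CCAAT, 35.7% held GGGCGG, 20.8% held TGACG and 7.15% held CACGTG. A match is a description of the letters and not evidence of a bound factor.

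Between 17671193 and 27418358 reads were counted in a pool. Levels are given as CPM, the counts of a gene scaled to a common library size, after TMM scaling, with factors of 0.955 to 1.07. A CPM is a share of the RNA in a pool, so less RNA of a gene per oocyte, fewer cells that carry it, and more RNA of other genes cannot be told apart. The oocyte markers were present in every pool, with all 12 of 12 detected and a summed level of 15150 to 20057 CPM. Markers of granulosa and cumulus cells, which surround the oocyte and had been stripped off, were also detected, 12 of 12, but at different levels. Their summed level was 535, 131 and 615 CPM in PND 13 replicates 1, 2 and 3, and 189, 668 and 261 CPM in PND 16 small. It was 201 to 214 CPM in PND 16 large and 166 to 188 CPM in PND 40. Nr5a2 alone made up a large part of the lower sums. It stood at 87.9 to 146 CPM in PND 13 and 118 to 134 CPM in PND 16 small. In PND 16 large it stood at 91.0 to 97.7 CPM and in PND 40 at 88.2 to 92.7 CPM. By the sums, PND 13 replicates 1 and 3 and PND 16 small replicate 2 stood apart. Results that change without these 3 pools are given both ways. In that setting PND 13 keeps 1 pool, replicate 2, which is then assumed to vary like the other cohorts. Theca and stroma markers summed to 6.09 to 40.7 CPM, and the markers of blood, immune and endothelial cells to 53.1 to 65.1 CPM. Pecam1 alone carried the latter sum (52.0 to 64.6 CPM), Cd68 stood at 0.518 to 1.22 CPM, both hemoglobin genes had 0 counts, and the other 3 markers were below the filter.

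**Figure D1:**
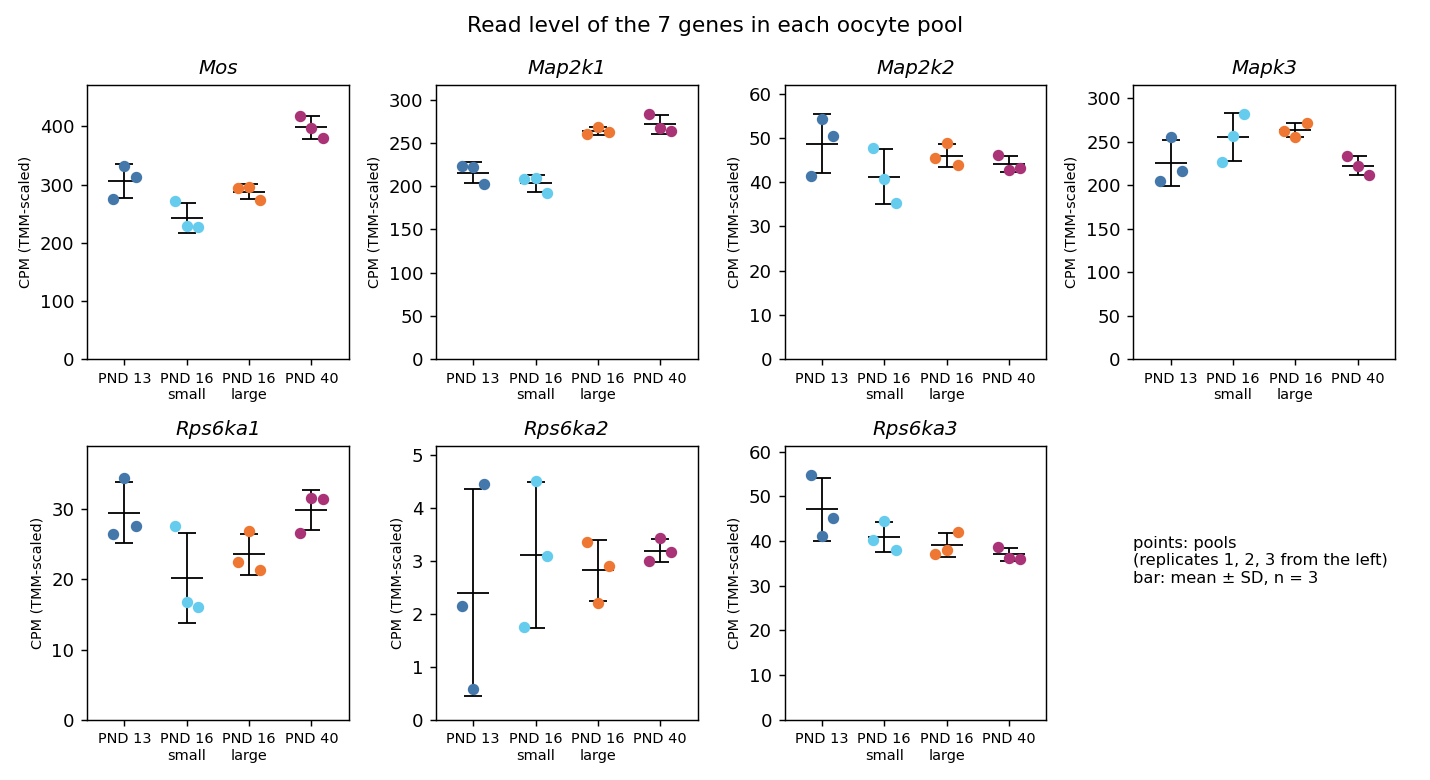
Level of each of the 7 genes in TMM-scaled CPM (vertical axes, each from 0) in the 4 cohorts (horizontal axes), with 1 point per pool and bars at the mean ± SD of 3 pools. Mos was highest in the 3 PND 40 pools (379 to 418 CPM), and Map2k1 was higher in all 6 PND 16 large and PND 40 pools (259.9 to 284 CPM) than in the other 6 (192 to 223 CPM).

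The level of Mos was lowest in PND 16 small and highest in PND 40 oocytes, 1.64-fold apart, which was the single change among the 7 genes that reached 1.5-fold and passed the test. In replicates 1, 2 and 3, Mos stood at 275, 331 and 314 CPM in PND 13 and at 272, 228 and 228 CPM in PND 16 small. It stood at 294, 295 and 273 CPM in PND 16 large and at 418, 396 and 379 CPM in PND 40. Every PND 40 pool was above every pool of the other cohorts, whereas the pools of PND 13 and PND 16 large overlapped. The means ± SD were 307 ± 29.0 CPM in PND 13, 243 ± 25.3 CPM in PND 16 small, 288 ± 12.8 CPM in PND 16 large and 398 ± 19.5 CPM in PND 40 (n = 3 each).

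Each gene was tested by edgeR (quasi-likelihood), its p was adjusted by Benjamini-Hochberg over the 13943 genes, and it passed where the adjusted p was 0.05 or less. Mos rose in PND 40 vs. PND 16 small by 0.71 on the log2 scale (SE 0.0874, adjusted p = 0.000124). It rose in PND 40 vs. PND 16 large by 0.47 (SE 0.0870, adjusted p = 0.00735) and in PND 40 vs. PND 13 by 0.38 (SE 0.0869, adjusted p = 0.00511). Thus Mos was higher in PND 40 than in each younger cohort. The other differences between cohorts did not pass edgeR's test with all pools. PND 16 small vs. PND 13 gave a log2 fold change of -0.34 with an adjusted p of 0.0678, and DESeq2 passed it with an adjusted p of 0.00682. By edgeR it passed without PND 16 small replicate 1 (-0.43, adjusted p = 0.00798) and without PND 13 replicate 1 (-0.41, adjusted p = 0.0496). PND 16 large vs. PND 16 small gave 0.25 with an adjusted p of 0.0814. DESeq2 passed it (0.25, adjusted p = 0.0327), as did edgeR without PND 16 small replicate 1 (0.34, adjusted p = 0.0218). PND 16 large vs. PND 13 gave -0.09 with an adjusted p of 0.465. Taken by competence, with PND 16 large and PND 40 against PND 13 and PND 16 small, Mos gave 0.32 (adjusted p = 0.0644), with the 2 groups of pools overlapping. DESeq2 passed this comparison (adjusted p = 0.0382), as did a contrast of cohort means in the model of 4 cohorts (0.31, adjusted p = 0.00152). So did edgeR without PND 13 replicate 2 (0.37, adjusted p = 0.0398) and without PND 16 large replicate 3 (0.37, adjusted p = 0.0407). Leaving out PND 16 large replicate 3 raised the adjusted p of PND 40 vs. PND 16 large to 0.0504. Without the 3 pools high in granulosa markers, PND 40 vs. PND 13 fell short with a log2 fold change of 0.27 (adjusted p = 0.141, with 1 PND 13 pool left), while PND 40 vs. PND 16 small stayed at 0.68 (adjusted p = 0.000476).

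Map2k1, the gene of MEK1, was higher in the competent cohorts. Its levels were 223, 221 and 202 CPM in the PND 13 pools and 208, 209 and 192 CPM in the PND 16 small pools. They were 259.9, 269 and 263 CPM in the PND 16 large pools and 284, 268 and 263 CPM in the PND 40 pools. The 6 competent pools did not overlap the 6 non-competent pools. Taking PND 16 large and PND 40 together against PND 13 and PND 16 small, Map2k1 rose by 0.35 on the log2 scale (SE 0.0522, adjusted p = 0.000262), a 1.28-fold difference. It rose in PND 16 large vs. PND 13 by 0.29 (adjusted p = 0.00584) and in PND 16 large vs. PND 16 small by 0.38 (adjusted p = 0.00373), the latter between mice of the same age. PND 40 oocytes were likewise higher, by 0.33 than PND 13 (adjusted p = 0.00175) and by 0.42 than PND 16 small (adjusted p = 0.000457). In these 5 comparisons Map2k1 passed in every fit with 1 pool left out, while without the 3 pools high in granulosa markers PND 16 large vs. PND 13 gave 0.26 (adjusted p = 0.0966) and PND 40 vs. PND 13 gave 0.30 (adjusted p = 0.0511). PND 40 vs. PND 16 large gave 0.04 (95% interval -0.10 to 0.18, adjusted p = 0.771).

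Map2k2, the gene of MEK2, passed in none of the 7 comparisons. Its levels were 41.4, 54.3 and 50.4 CPM in PND 13, 47.8, 40.6 and 35.3 CPM in PND 16 small, 45.3, 48.8 and 43.8 CPM in PND 16 large, and 46.1, 42.8 and 43.3 CPM in PND 40. The pools of every pair of cohorts overlapped. Competent vs. non-competent oocytes gave a log2 fold change of 0.00086 with a 95% interval of -0.21 to 0.21, so a change of 1.5-fold lies outside the interval.

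Mapk3, the gene of ERK1, also passed in no comparison. The PND 13 pools stood at 205, 256 and 216 CPM and the PND 16 small pools at 227, 257 and 282 CPM. The PND 16 large pools stood at 263, 256 and 272 CPM and the PND 40 pools at 233, 222 and 211 CPM. All 3 PND 40 pools lay below all 3 PND 16 large pools, with a log2 fold change of -0.25 (adjusted p = 0.135) that passed when only these cohorts were fitted (adjusted p = 0.00773). PND 16 large vs. PND 13 gave 0.22 (adjusted p = 0.0929) and passed without PND 13 replicate 2 (0.31, adjusted p = 0.0234). PND 40 vs. PND 16 small gave -0.20 (adjusted p = 0.125) and passed without PND 16 small replicate 1 (-0.27, adjusted p = 0.0376).

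The 3 RSK genes were less abundant. Rps6ka1 (RSK1) stood at 26.4, 34.5 and 27.6 CPM in PND 13 and at 27.6, 16.8 and 16.1 CPM in PND 16 small. It stood at 22.5, 26.9 and 21.3 CPM in PND 16 large and at 26.6, 31.6 and 31.5 CPM in PND 40. Within PND 16 small, replicate 1 was far above the other pools of its cohort, and it overlapped the PND 40 pools. Rps6ka1 rose in PND 40 vs. PND 16 small by 0.57 on the log2 scale (SE 0.192, adjusted p = 0.0392). It no longer passed in 5 of 6 fits that left out 1 pool (log2 fold change 0.42 to 0.86) and without the 3 pools high in granulosa markers (0.45, adjusted p = 0.132). The pool without which it still passed was PND 16 small replicate 1, and without that pool PND 16 small was also lower than PND 13, by a log2 fold change of -0.84 (adjusted p = 0.00613), as against -0.55 (adjusted p = 0.141) with it.

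Rps6ka3 (RSK2) stood at 54.8, 41.2 and 45.2 CPM in PND 13, at 40.3, 44.6 and 38.0 CPM in PND 16 small, at 37.1, 38.0 and 42.1 CPM in PND 16 large, and at 38.7, 36.2 and 36.0 CPM in PND 40. The highest pool, PND 13 replicate 1, was also among those high in granulosa markers. Rps6ka3 fell in PND 40 vs. PND 13 by 0.35 on the log2 scale (SE 0.117, adjusted p = 0.0356), with no overlap between the pools. It no longer passed in 5 of 6 fits that left out 1 pool, all but the fit without PND 13 replicate 2 (log2 fold change -0.46 to -0.22). Without the 3 pools high in granulosa markers, PND 13 rested on replicate 2, the lowest of its cohort at 41.2 CPM, and the log2 fold change was -0.15 (adjusted p = 0.501). The part of granulosa cell RNA in the PND 13 level was not tested.

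Rps6ka2 (RSK3) was the scarcest, with 15 to 109 reads in a pool. It stood at 2.15, 0.586 and 4.46 CPM in PND 13, 1.75, 4.50 and 3.08 CPM in PND 16 small, 3.35, 2.21 and 2.91 CPM in PND 16 large, and 3.00, 3.42 and 3.16 CPM in PND 40. Its spread was wide in the non-competent cohorts, where the coefficient of variation was 81.3% in PND 13 and 44.2% in PND 16 small, and narrow in PND 40 at 6.67%. No comparison passed, and the 95% interval of PND 40 vs. PND 13 ran from -0.74 to 1.57 on the log2 scale, which includes changes beyond 1.5-fold in both directions. The pool with the fewest granulosa markers, PND 13 replicate 2, had the lowest Rps6ka2, and the pools with the most, PND 13 replicate 3 and PND 16 small replicate 2, had the highest, while PND 13 replicate 1 with its 535 CPM of markers lay below the PND 40 pools. With the 3 pools high in granulosa markers left out, PND 13 rested on that lowest pool alone, and Rps6ka2 passed in PND 40 vs. PND 13 with a log2 fold change of 2.44 (adjusted p = 0.0126) and in PND 16 large vs. PND 13 with 2.26 (adjusted p = 0.0248). The share of Rps6ka2 reads that came from granulosa cells was not tested.

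**Figure D2:**
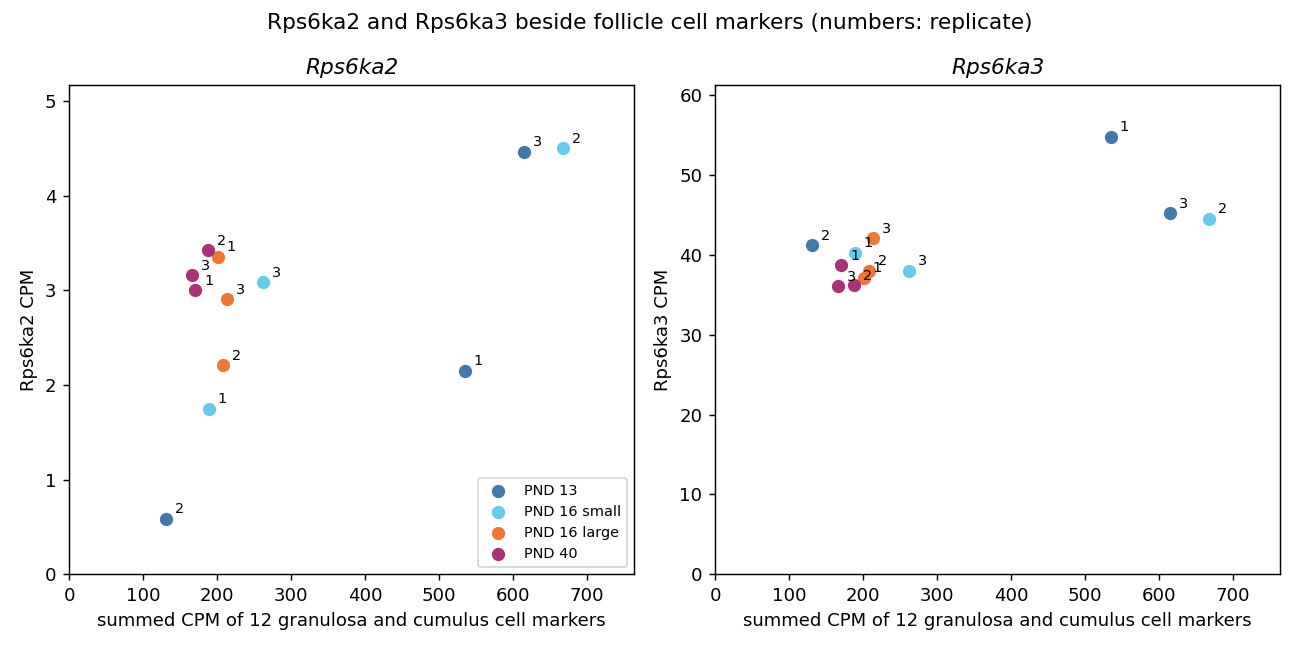
Level of Rps6ka2 (left) and Rps6ka3 (right) in CPM against the summed CPM of 12 granulosa and cumulus cell markers, 1 point per pool, coloured by cohort and numbered by replicate. The 3 pools furthest to the right, at 535 to 668 CPM of markers, are PND 13 replicates 1 and 3 and PND 16 small replicate 2, and PND 13 replicate 2 has the lowest marker level (131 CPM) and the lowest Rps6ka2 (0.586 CPM).

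The counts of the 7 genes were read against those of all genes. In PND 40 vs. PND 13, 3 of 7 passed the adjusted p (Mos, Map2k1 and Rps6ka3), beside 33.1% of all genes tested, and 0 of 7 also reached 1.5-fold, beside 18.9%. The median absolute log2 fold change was 0.33 over the 7 and 0.39 over all genes. In PND 40 vs. PND 16 small, 3 of 7 passed (Mos, Map2k1 and Rps6ka1) beside 30.2%, and 1 of 7 reached 1.5-fold beside 17.2%. In competent vs. non-competent oocytes, 1 of 7 passed (Map2k1) beside 30.7%, and 0 of 7 reached 1.5-fold beside 15.0%, with a median absolute log2 fold change of 0.13 over the 7 and 0.30 over all genes.

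The remaining comparisons gave 1 gene or none. By edgeR, Map2k1 alone passed in PND 16 large vs. PND 13 (25.6% of all genes passed and 13.3% also reached 1.5-fold) and in PND 16 large vs. PND 16 small (12.3% and 6.19%), and DESeq2 also passed Mos in the latter. Mos alone passed in PND 40 vs. PND 16 large (6.83% and 3.66%). In PND 16 small vs. PND 13 none of the 7 passed edgeR's test (0.925% and 0.373% of all genes), 2 had an unadjusted p under 0.05 (Mos and Rps6ka1), DESeq2 passed 1 (Mos) and limma passed 0. The median absolute log2 fold change there was 0.24 over the 7 and 0.23 over all genes. The count of all genes called in it rested on single pools, at 52 with all pools, 817 without PND 16 small replicate 1, 5 without PND 16 small replicate 3, 4 without PND 13 replicate 3 and 89 without PND 13 replicate 1. The comparisons share cohorts, so they are not independent of each other.

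**Figure D3:**
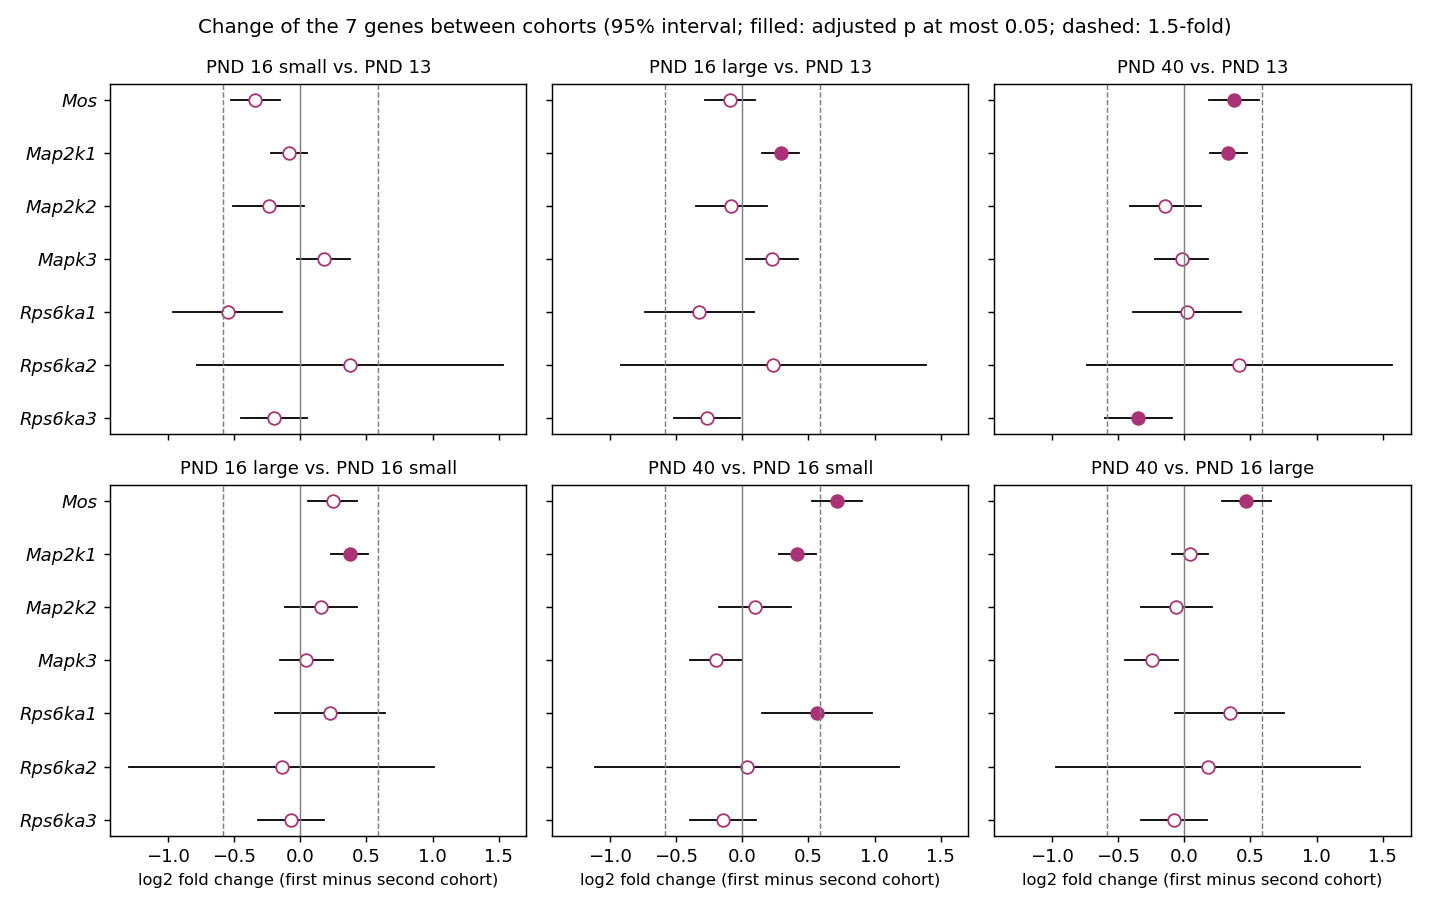
Log2 fold change (horizontal axes) of each of the 7 genes in the 6 pairwise comparisons of cohorts, as first minus second cohort, with 95% intervals from edgeR's quasi-likelihood fit. Filled points have an adjusted p of at most 0.05 and dashed lines mark 1.5-fold. Mos in PND 40 vs. PND 16 small (0.71) is the single filled point beyond a dashed line, and the intervals of Rps6ka2 are the widest.

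To compare levels between genes, CPM were divided by the length in kb of the longest coding transcript. In PND 13 the mean levels per kb were 212 for Mos, 125 for Mapk3, 88.5 for Map2k1, 20.2 for Map2k2, 9.41 for Rps6ka1, 6.50 for Rps6ka3 and 0.444 for Rps6ka2. This order of means held in all 4 cohorts. The pools of Rps6ka1 and Rps6ka3 overlapped in PND 16 small, at 5.13 to 8.80 and 5.25 to 6.15 CPM per kb. With the length of all exons in place of one transcript, Rps6ka1 and Rps6ka3 changed places in PND 16 small (4.74 and 4.92 CPM per kb), and these orders depend on the transcripts that oocytes use, which the counts do not show.

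**Figure D4:**
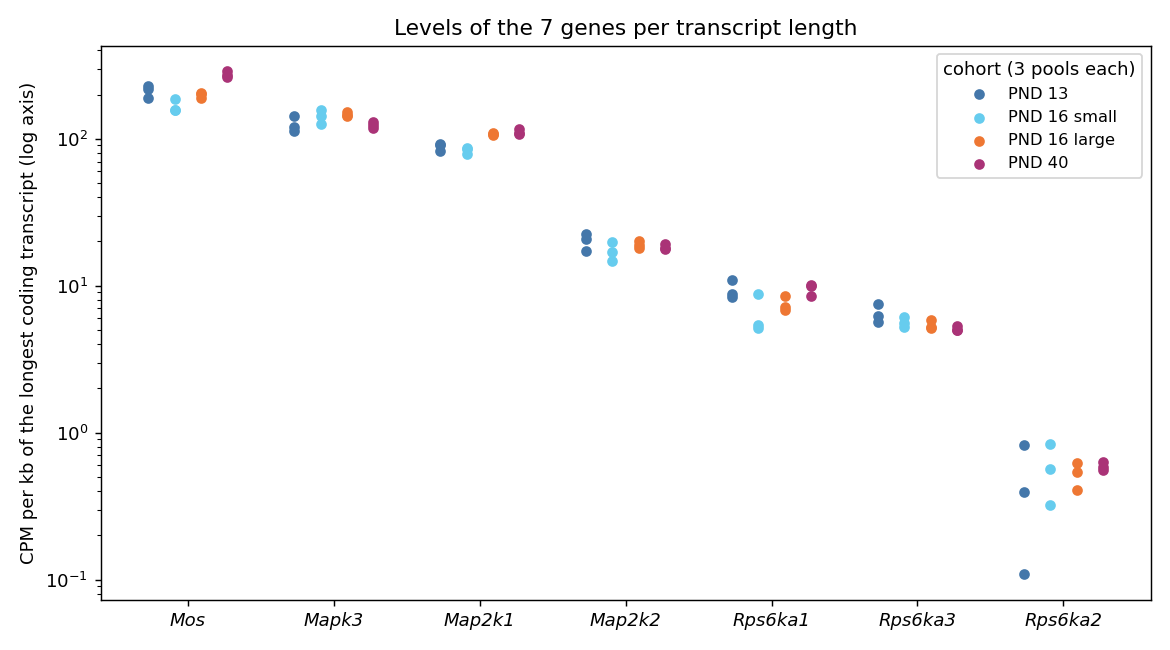
Levels of the 7 genes in CPM per kb of the longest coding transcript (vertical log axis), 1 point per pool, coloured by cohort. Mos is the highest in every cohort (means 167 to 275 CPM per kb) and Rps6ka2 the lowest (means 0.444 to 0.591 CPM per kb).

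Among the 3 RSK genes, Rps6ka1 made up 43.5% to 65.5% of the summed level per kb in a pool, Rps6ka3 31.8% to 49.8% and Rps6ka2 0.646% to 6.74%. Rps6ka1 was ahead of Rps6ka3 in 10 of the 12 pools. The other 2 were PND 16 small replicates 2 and 3.

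Ratios of related kinases within a pool do not depend on how pools are scaled. They were chosen after the values had been seen, so they are given as a description with no test. The ratio of Map2k1 to Map2k2 reads was 5.40, 4.08 and 4.01 in PND 13 and 4.36, 5.16 and 5.44 in PND 16 small. It was 5.73, 5.51 and 6.0 in PND 16 large and 6.15, 6.25 and 6.08 in PND 40. The mean log2 ratio was 2.57 ± 0.0690 in the competent and 2.23 ± 0.204 in the non-competent pools (SD, n = 6 each), and the pools of the 2 groups did not overlap. The ratio of Rps6ka3 to Rps6ka1 ranged from 1.15 to 1.98 in the competent and from 1.20 to 2.65 in the non-competent pools, which overlapped.

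**Figure D5:**
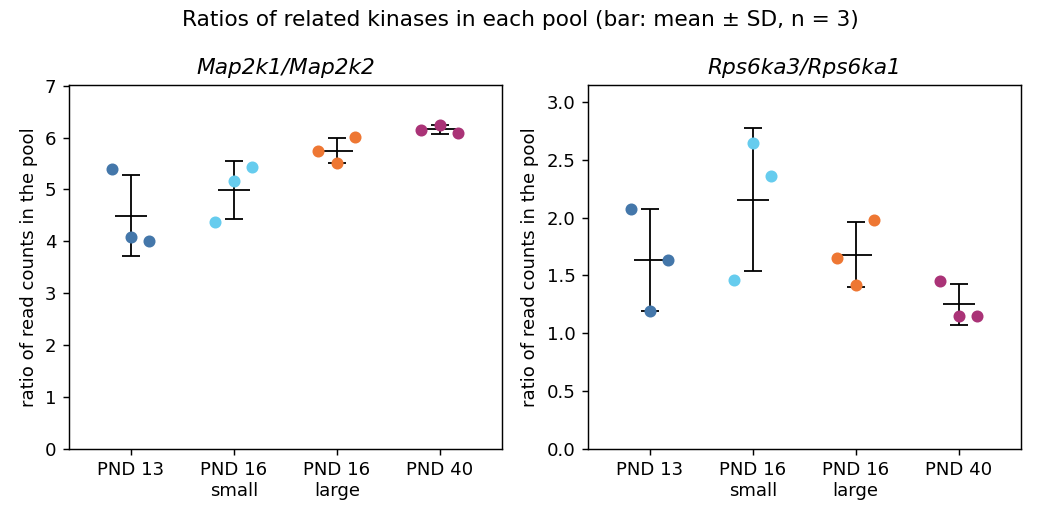
Ratio of read counts (vertical axes, each from 0) of Map2k1 to Map2k2 and Rps6ka3 to Rps6ka1 in each pool by cohort, with bars at the mean ± SD of 3 pools. The Map2k1 to Map2k2 ratio is 5.51 to 6.25 in the 6 competent pools and 4.01 to 5.44 in the 6 non-competent pools.

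The likeness of other genes to each of the 7 was measured by Pearson's r of log2 CPM over the 12 pools, searching 11944 genes whose mean level was 1 CPM or more. The pools share cohorts, so any 2 genes that follow the same cohorts score high, and r is given as a description. The nearest to Mos were Abcf3 (r = 0.974), Lhb (0.972), Rnf219 (0.968), Ttyh3 (0.960) and Atf3 (0.959). The nearest to Map2k1 were Eed (0.971) and Omt2b (0.971), and the nearest to Rps6ka1 were Mterf3 (0.962) and Med22 (0.952). Likeness was lower for Map2k2 (Cops7a at 0.933 and Trappc5 at 0.920), Mapk3 (Phf7 at 0.914 and Zfp955a at 0.889), Rps6ka3 (Dffb at 0.905 and Rap2b at 0.899) and Rps6ka2 (Bcat2 at 0.900 and Ypel2 at 0.899). Among the 7 themselves, Mos and Rps6ka1 were the most alike (r = 0.78) and Mapk3 and Rps6ka1 the least (r = -0.63).

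The genes around the cascade were counted in lists drawn from general knowledge, and each count is read beside the 30.7% of all 13943 genes that passed in competent vs. non-competent oocytes. Of 12 granulosa and cumulus cell markers, 3 passed as lower, none as higher and 9 did not pass in the same comparison. Their median log2 fold change was -1.51. In PND 40 vs. PND 13, where 33.1% of all genes passed, the markers likewise gave 3 lower, none higher and 9 that did not pass. The part of granulosa cell RNA in the list genes was not tested, and those named below are given with and without the 3 pools high in these markers wherever a stated pass changed. The counts of the lists in competent vs. non-competent oocytes are also given without these pools, where 18.2% of all genes passed.

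Of 18 inputs to the MEKs (Ras proteins, their activators and MAP kinase kinase kinases), 1 rose and 5 fell in competent vs. non-competent oocytes and 12 did not pass. Map3k3, a kinase that activates MEK5 among others, went from 9.84 ± 1.76 to 3.51 ± 1.16 CPM (SD, n = 6 each), with a log2 fold change of -1.49 (adjusted p = 0.000235). Map3k2, its close relative, fell too, with a log2 fold change of -1.01 (adjusted p = 3.62e-05). Sos1, an exchange factor that loads Ras with GTP, had -0.77 (adjusted p = 0.000195). The median log2 fold change of the 18 was -0.11, beside -0.0046 over all genes.

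Of 8 relatives and other targets of ERK and RSK, 2 rose and 2 fell in the same comparison, and 2 rose and 1 fell without the 3 pools. Mknk2, a kinase of the translation factor eIF4E, fell by 0.64 on the log2 scale (adjusted p = 0.000691). Rps6ka4, the gene of MSK2, fell by 1.01 (adjusted p = 0.0245) from a level near 1 CPM, and gave -0.96 (adjusted p = 0.122) without the 3 pools. Of 14 tested genes of the JNK, p38 and ERK5 cascades and atypical MAP kinases, 4 rose and 1 fell. With the 3 pools left out, 1 rose and 1 fell, of 15 then tested. Mapk11, the gene of p38 beta, fell by 1.04 (adjusted p = 0.0149). Its cohort means were 29.0 CPM in PND 13, 13.8 CPM in PND 16 small, 9.98 CPM in PND 16 large and 10.9 CPM in PND 40, and the pools of PND 16 small (8.72 to 16.8 CPM) overlapped those of PND 16 large (6.17 to 15.2 CPM). Mapk10, the gene of JNK3, rose by 1.29 (adjusted p = 0.0109). Map2k7, which activates JNK, passed by edgeR in PND 40 vs. PND 16 large alone, where it rose by 0.62 (adjusted p = 0.0374). Without the 3 pools, its log2 fold change in PND 40 vs. PND 13 was 0.73, against a single PND 13 pool.

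Of 19 tested MAP kinase phosphatases, Sprouty and Spred proteins and other inhibitors, 4 rose and 6 fell in competent vs. non-competent oocytes. Of these, 1 of the 4 and 5 of the 6 reached 1.5-fold, beside 15.0% of all genes called there. With the 3 pools left out, 3 rose and 4 fell in that comparison. In PND 40 vs. PND 13, where 33.1% of all genes passed, 4 rose and 5 fell. There 2 of the 4 and 4 of the 5 reached 1.5-fold, beside 18.9% of all genes called. Dusp5, a nuclear phosphatase of ERK, had mean levels of 5.12 CPM in PND 13, 3.21 CPM in PND 16 small, 1.22 CPM in PND 16 large and 0.265 CPM in PND 40. It fell in PND 40 vs. PND 13 by 4.24 on the log2 scale (SE 0.483, adjusted p = 5.78e-05) and in PND 40 vs. PND 16 large by 2.18 (adjusted p = 0.0162). The size of these falls rests on very low levels in the PND 40 pools, 0.239 to 0.300 CPM. Dusp16, a phosphatase of JNK and p38, was far more abundant and went from 186 ± 4.94 CPM in PND 13 to 88.4 ± 8.45 CPM in PND 40 (SD, n = 3 each), a log2 fold change of -1.08 (adjusted p = 3.70e-05). Dusp2, a nuclear phosphatase, fell in PND 40 vs. PND 13 by 2.59 (adjusted p = 0.00316), between 9.47 and 1.56 CPM. Without the 3 pools, PND 40 vs. PND 13 rested on a single PND 13 pool. The log2 fold changes there were -3.87 for Dusp5, -1.05 for Dusp16 and -2.66 for Dusp2.

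Of 11 substrates and partners of ERK and RSK, 5 rose and 1 fell in competent vs. non-competent oocytes. None of the 5 that rose reached 1.5-fold, beside 15.0% of all genes called there. With the 3 pools left out, 3 rose and 1 fell. The one that fell was Gsk3b, a kinase that RSK can phosphorylate (log2 fold change -0.66, adjusted p = 6.58e-05). Of 10 tested genes that ERK signalling is known to induce in other cells, none rose and 1 fell. That gene was Ier2, an immediate early gene, at a log2 fold change of -1.79 (adjusted p = 0.0194) and a level under 3 CPM. Without the 3 pools Ier2 gave -1.18 (adjusted p = 0.209), and none of the 11 genes then tested rose or fell. Etv5, a transcription factor, fell in PND 40 vs. PND 16 large by 1.01 (adjusted p = 0.00343) from 24.3 ± 3.07 to 12.1 ± 1.38 CPM (SD, n = 3 each). The other 9 of these 10 genes did not pass in PND 40 vs. PND 16 large, where 6.83% of all genes passed. The median log2 fold change of the 10 there was -0.39, beside 0.0037 over all genes.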

How the data were processed

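RNA-Seq of 12 oocyte pools, 3 per cohort, was used, with each pool's cohort and replicate number taken from the deposited sample labels. The study depleted ribosomal RNA, prepared directional libraries and sequenced reads of 50 bases. The submitters' processing notes name FastQC, STAR, HTSeq, DESeq2, DESeq, HOMER and mm10, and their versions, settings and gene annotation are not given in the sources used here. The authors deposited raw counts of reads per gene, without normalization, and these were the input of all main tests. The authors deposited log2 values too, each the log2 of the count divided by a pool's size factor, plus 1 (tested on the files: the 2 tables were proportional to 7.04e-12%). Counts carry no molecular identifiers, so the spread between pools was used throughout. Pools of a cohort differed by more than sampling noise (chi-square per gene of 9.24 to 50.2).

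Genes were kept by edgeR 4.0.16 (filterByExpr, minimum count 10) in R 4.3.3, scaled by TMM and fitted by robust quasi-likelihood, with 4 cohorts in 1 model, or 2 groups for competence. Adjusted p-values are Benjamini-Hochberg over all genes tested, and a called gene had an adjusted p no larger than 0.05 with a change of 1.5-fold or more, as in the study. Standard errors are the absolute log2 fold change over the square root of the F statistic. The fit was tested on simulated data. Log2 CPM used a prior count of 2. The alternatives were DESeq2 1.42.0, RLE factors, total counts, no filter, limma 3.58.1 on the log2 values, only the cohorts compared (for competence, a contrast of cohort means in the model of 4 cohorts), no fold criterion, the replicate number as a block and leaving out each pool. Leaving out the 3 pools highest in granulosa markers, for the 7 genes and the lists, and the ratios of related kinases were added after the values had been seen.

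The genes and lists were chosen with earlier results of these data known. The genes named were the 7, up to 3 genes per list called in most comparisons (ties by the change in PND 40 vs. PND 13), the genes most like each of the 7, and genes whose exons overlap theirs. A further gene of the rule, which also belongs to a list and to a ratio, is not reported here. Figures were drawn with matplotlib 3.10.9.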

Additional observations from a re-analysis of the deposited data

Results flagged for a closer look

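Map2k1 stood at 284 CPM in PND 40 replicate 1, apart from the other 5 competent pools at 259.9 to 269 CPM. The gap to the next pool was 0.634 of the whole range of the 6 pools, above Dixon's 95% critical value for 6 samples. Of the 14 groups tested, 7 genes in each of 2 groups of 6 pools, this was the 1 that passed, and chance alone flags about 1 in 20 groups. Without this pool, Map2k1 still passed in competent vs. non-competent oocytes.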

How the results depend on the processing

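Without the fold criterion, the counts of the 7 genes called became 1 in competent vs. non-competent, 1 in PND 16 large vs. PND 13, 1 in PND 16 large vs. small, 3 in PND 40 vs. PND 13, 1 in PND 40 vs. PND 16 large and 3 in PND 40 vs. PND 16 small, as a criterion was removed. In PND 40 vs. PND 16 small, limma and scaling by total counts each called 2, and leaving out 1 pool called 1 to 2. In PND 16 small vs. PND 13, leaving out 1 pool called 0 to 1 (1 without PND 16 small replicate 1). Without the 3 pools high in granulosa markers, 1 was called in PND 16 large vs. PND 13 and 1 in PND 40 vs. PND 13, both Rps6ka2 against a single PND 13 pool. The cause of these shifts was not tested.

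Reversed signs concerned log2 fold changes that did not pass. In competent vs. non-competent oocytes, Map2k2 gave -0.0022 with DESeq2, -0.0017 without the filter, -0.0011 with RLE factors, -0.039 with total counts and -0.022 without the 3 pools, and Mapk3 gave -0.016 with total counts and -0.064 without the 3 pools. Rps6ka1 in PND 40 vs. PND 13 gave -0.0086 with only these cohorts, -0.051 with total counts and -0.20 without the 3 pools. Without the 3 pools, Mapk3 in PND 16 small vs. PND 13 gave -0.013, and in PND 16 large vs. PND 16 small Rps6ka2 gave 0.24 and Rps6ka3 0.0044. Scaling by total counts moved the median of all genes to -0.12 when PND 16 small and -0.13 when PND 16 large was compared with PND 13.

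Leaving out 1 pool also turned signs. In competent vs. non-competent oocytes the ranges were -0.071 to 0.052 for Map2k2, -0.027 to 0.056 for Mapk3, -0.0061 to 0.21 for Rps6ka1 and -0.094 to 0.32 for Rps6ka2. In PND 40 vs. PND 13 they were -0.084 to 0.054 for Mapk3, -0.053 to 0.12 for Rps6ka1 and -0.080 to 1.24 for Rps6ka2. In PND 40 vs. PND 16 small they were -0.013 to 0.22 for Map2k2 and -0.25 to 0.41 for Rps6ka2. In PND 16 large vs. PND 16 small they were -0.026 to 0.13 for Mapk3, -0.43 to 0.23 for Rps6ka2 and -0.12 to 0.00030 for Rps6ka3. Rps6ka2 ranged from -0.249 to 1.058 in PND 16 large vs. PND 13 and from -0.12 to 1.20 in PND 16 small vs. PND 13.

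Replicate numbers did not pair the pools, since deviations from the cohort means of pools with the same number correlated at -0.44 to 0.075 over 18 pairs. With the replicate number as a block, 1 of the 7 genes was called in PND 40 vs. PND 16 small and 0 in every other comparison, as without it. The block left Rps6ka3 in PND 40 vs. PND 13 (adjusted p = 0.0548) and Rps6ka1 in PND 40 vs. PND 16 small short of the threshold. The count of all genes called moved most in PND 16 small vs. PND 13, from 52 to 361 with DESeq2, 25 with total counts, 10 with the block, 2 with only these cohorts, 17 without the 3 pools and 4 to 817 without 1 pool. Without the 3 pools it went from 1858 to 1064 in PND 16 large vs. PND 13 and from 2637 to 1506 in PND 40 vs. PND 13. Without 1 pool it went as low as 1154 in PND 16 large vs. PND 13, from 863 to 333 in PND 16 large vs. PND 16 small and from 510 to 246 in PND 40 vs. PND 16 large. With only the cohorts compared the last 2 became 475 and 1081, and DESeq2 called 782 in the last. Depth limits Rps6ka2 most, with as few as 15 reads in a pool.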
